A study of Mus musculus with 8 samples.

Results

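Livers of mice that lack Glul in myeloid cells were compared after LPS/D-GalN and after H2O, gene by gene. All genes with at least 1 FPKM (fragments per kilobase of exon, scaled to the fragments a library has in genes) in at least 2 of the 4 libraries were taken, which gave 12657 of the 55416 genes in the deposited table. All 4 libraries came from livers of GlulΔlyz2 mice (KO), in which Glul, the gene for glutamine synthetase, is deleted in cells that express Lyz2. Lyz2-driven Cre acts mainly in macrophages, monocytes and neutrophils, so hepatocytes keep the gene. In 2 of them the mice had been given H2O into the peritoneum, and in the other 2 D-galactosamine (D-GalN) at 200 mg/kg together with bacterial lipopolysaccharide (LPS) at 1 mg/kg by the same route. Livers of Glul flox/flox mice (floxed), 2 given H2O and 2 given LPS/D-GalN at the same doses, served to test whether a change differed from that in mice for which the labels name no Cre. The sources used here do not state age, sex, strain or the time from injection to collection. Whether each library stands for its own animal is not stated in the labels, so that p-values measure only the spread between these libraries.

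LPS is bound by CD14 and the TLR4 receptor complex on macrophages, and signals through MyD88 and TRIF to NF-kB and to type I interferon. D-galactosamine is metabolised mainly in hepatocytes, where it traps uridine nucleotides as UDP-sugars, lowers RNA synthesis and leaves the cells open to death by tumour necrosis factor. Together they are used as a model of acute liver failure in mice, in which Kupffer cells and recruited leukocytes supply the cytokines and hepatocytes are the cells that die.

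Bulk liver RNA was sequenced, at between 18381670 and 24799144 assigned fragments per KO library. Each fragment in a 1 kb gene stood for 0.0403 to 0.0544 FPKM. Haemoglobin genes took 0.0108% and 0.0155% of the fragments of the H2O libraries, but 2.00% and 0.285% of those of the injured libraries, and mitochondrial genes took 22.6% and 13.5% against 10.4% and 12.6%. The summed level of 6 hepatocyte markers was 26977 and 37371 FPKM after H2O and 37911 and 37139 FPKM after injury, so the libraries carried the tissue they are labelled as. Changes are given as the difference of mean log2(FPKM + 1), injured minus H2O (2 libraries per group), with the standard error from limma. That error comes from 1 fit of all 8 libraries that shares the spread between groups and genes. It is therefore the same for the KO and the floxed change of a gene, and is not the spread of the libraries compared alone. The words rose, fell and changed are kept for genes whose Benjamini-Hochberg adjusted p from limma was under 0.05. In whole tissue, fewer cells of a type and less RNA per cell cannot be told apart.

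Glul (ENSMUSG00000026473), the deleted gene, stood at 89.8 and 134 FPKM in the H2O libraries and 74.6 and 90.1 FPKM in the injured libraries. Hepatocytes around the central vein supply most Glul of a liver, so whole tissue does not check the deletion in myeloid cells. The groups overlapped, and the change of -0.42 ± 0.27 did not pass (limma adjusted p = 0.214). Lyz2 (ENSMUSG00000069516), which codes for a bacteria-killing enzyme of macrophages and neutrophils and carries the Cre insertion, went from 5.27 and 9.92 to 39.9 and 32.6 FPKM, a rise of 2.17 ± 0.41 (limma adjusted p = 0.00236).

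Injury changed 8235 of the 12657 genes, or 65.1%, against 63% of the 13708 genes tested in all 8 libraries. Of these 3023 (23.9%) rose and 5212 (41.2%) fell, so that 36.7% of the changed genes were higher, and the median change over all 12657 genes was -0.26. After median centring 3785 rose and 4000 fell, which is 48.6% higher, with a median of -0.03. After quantile normalisation 43.5% were higher and the median was -0.12, and it was -0.34 when mitochondrial and haemoglobin genes were left out of the scaling. The sign of small changes therefore depends on the scaling. The FPKM values of the groups did not overlap in 10237 genes (80.9%), so that separation alone says little about a single gene. The filter itself fixes part of these counts, because 1074 genes reached 1 FPKM only in the 2 injured libraries and 1748 only in the 2 H2O libraries. Among the 8668 genes at or over 1 FPKM in all 4 libraries 4950 changed (57.1%), 1808 upwards and 3142 downwards. Rises were more often steep than falls were. At least 4-fold on the FPKM + 1 scale, 714 genes rose and 513 fell, and at least 16-fold 138 rose and 28 fell. Just inside the limit of 1 FPKM stood N4bp2os, at 1.26 and 1.00 FPKM after H2O and 0.124 and 0.0899 FPKM after injury, and just outside it 1700096K18Rik, at 0.999 and 1.12 against 0.416 and 0.388 FPKM.

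The 12 steepest rises were those of metallothionein Mt1, the iron-binding lipocalin Lcn2, the acute-phase serum amyloids Saa1, Saa2 and Saa3, the chemokines Cxcl10, Ccl2 and Cxcl2, the calprotectin subunits S100a8 and S100a9, the growth arrest gene Gadd45b and Slfn4, a gene of the Schlafen family. Mt1, which binds zinc and copper, went from 3.31 and 2.14 FPKM to 1492 and 1847 FPKM, a change of 8.82 ± 0.22 (limma adjusted p = 5.58e-07). Slfn4 stood at 0.568 and 0.371 FPKM in the H2O libraries and 351 and 387 FPKM in the injured libraries (7.98 ± 0.16, limma adjusted p = 4.49e-07). Both injured libraries lay far above both H2O libraries in each of the 12, although Saa1 and Saa2 are near-identical copies between which reads may be split. The steepest falls with a known product were those of G6pc, glucose-6-phosphatase of glucose output, Cyp7a1, the first enzyme of bile acid synthesis, Cyp26a1, which degrades retinoic acid, and Hjv, a co-receptor that drives hepcidin. G6pc stood at 349 and 116 FPKM in the H2O libraries and 6.21 and 0.817 FPKM in the injured libraries, a change of -5.81 ± 0.67 (limma adjusted p = 0.000244). Hjv stood at 118 and 81.8 FPKM in the H2O libraries and 2.55 and 1.41 FPKM in the injured libraries (-5.08 ± 0.34, limma adjusted p = 2.18e-05). Apoc2, a cofactor of lipoprotein lipase, was also among the 12, at 40.2 and 28.7 against 0.149 and 0.116 FPKM, but a read-through gene that joins it to its neighbour Apoc4 overlaps it, and how reads were counted between them is not stated. The other 7 were Gm17662, Gm45724, Gm15622, Gm22935, Gm29966, Gm30301 and the pseudogene Mup-ps16, predicted genes or copies without a named function.

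Of 15 LPS sensing genes 7 rose and 4 fell, or 4 and 3 of the 11 at or over 1 FPKM in all 4 libraries. The share that fell was under the 41.2% over all genes, and 2 fell after median centring. The median was 0.28, against -0.26 over all genes. The LPS co-receptor Cd14 (ENSMUSG00000051439) stood at 0.893 and 0.471 FPKM in the H2O libraries and 173 and 114 FPKM in the injured libraries, a rise of 6.40 ± 0.24 (limma adjusted p = 2.55e-06). Tlr2, the receptor of bacterial lipopeptides, went from 0.513 and 0.144 to 25.2 and 21.5 FPKM, a rise of 4.20 ± 0.17. Irak3, a kinase-dead brake on the Toll-like receptor signal, rose from 0.179 and 0.266 to 10.7 and 9.87 FPKM (3.21 ± 0.14, limma adjusted p = 4.76e-06), and the adaptor Myd88 from 5.51 and 5.83 to 29.8 and 29.5 FPKM (2.20 ± 0.13). The groups were apart in all 4 genes, as they were in 80.9% of all genes. Tlr4 itself stayed under the limit in every library, at 0.127 and 0.0881 FPKM after H2O and 0.944 and 0.761 FPKM after injury. The adaptor Tirap stood at 6.30 and 5.61 FPKM in the H2O libraries and 2.74 and 3.59 FPKM in the injured libraries, a change of -0.74 ± 0.15 (limma adjusted p = 0.00331). In floxed livers it went the other way (1.12 ± 0.15), and the genotypes differed by -1.86 ± 0.21 (limma adjusted p = 0.00155). The kinase Irak1, which MyD88 recruits, fell from 12.3 and 12.9 to 7.38 and 8.42 FPKM (-0.61 ± 0.14), a call that was lost after median centring (-0.39, adjusted p = 0.0564).

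Of 15 NF-kB genes 12 rose and 3 fell, against 23.9% and 41.2% over all genes. Of the 11 at or over 1 FPKM in all 4 libraries 8 rose and 3 fell. The median of the 15 was 2.49 against 0.56 in floxed livers. Nfkbia, the inhibitor IκBα, stood at 15.1 and 12.7 FPKM in the H2O libraries and 445 and 219 FPKM in the injured libraries (4.40 ± 0.31, limma adjusted p = 2.61e-05). Tnfaip3, the deubiquitinase A20 that shuts the pathway down, went from 0.370 and 0.248 to 62.4 and 28.2 FPKM (5.04 ± 0.31, limma adjusted p = 1.63e-05). Its partner Tnip1 rose from 2.45 and 2.47 to 47.0 and 32.2 FPKM (3.53 ± 0.21), and the subunits Relb (0.760 and 0.700 to 19.3 and 13.3 FPKM) and Nfkb1 (2.74 and 2.64 to 18.9 and 20.5 FPKM) rose by 3.30 ± 0.21 and 2.49 ± 0.13. The first injured library was about as high as the second in Nfkb1 and well above it in Nfkbia and Tnfaip3. All 3 falls were in the IκB kinase complex, which releases NF-kB from its inhibitor. The regulatory subunit Ikbkg stood at 18.0 and 12.9 FPKM in the H2O libraries and 2.94 and 2.73 FPKM in the injured libraries, a change of -2.08 ± 0.18 (limma adjusted p = 7.24e-05). The catalytic subunit Chuk went from 34.3 and 26.5 to 9.08 and 10.6 FPKM (-1.53 ± 0.18, limma adjusted p = 0.000288). The other catalytic subunit Ikbkb, at 4.44 and 3.86 against 3.01 and 2.92 FPKM, fell by 0.37 with an adjusted p of 0.0307, a call that most alternatives ended, for example leaving out the second injured library (-0.36, adjusted p = 0.0812).

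**Figure D1:**
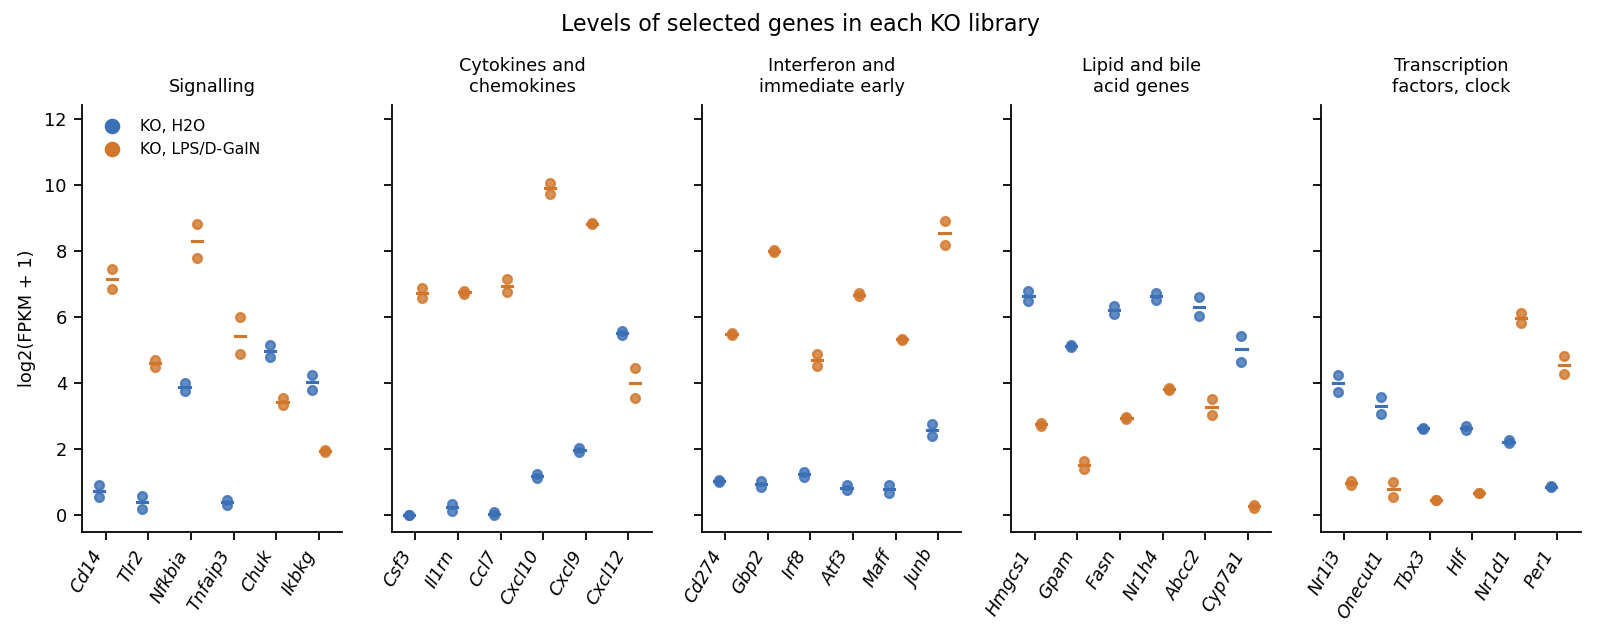
Levels of 30 genes in each of the 4 KO libraries, as log2(FPKM + 1). Blue points are the 2 H2O libraries, orange points the 2 injured libraries, and short lines the mean of each pair. Cd14, Tlr2, Nfkbia and Tnfaip3 were higher after injury and Chuk and Ikbkg lower, and among the chemokines shown Cxcl12 alone was lower.

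Of 15 cytokine genes 14 rose and none fell, with a median of 2.46 against 0.61 in floxed livers. As 3 of the 15 reached 1 FPKM in all 4 libraries, most could only differ upwards. Csf3 (ENSMUSG00000038067), the growth factor that releases neutrophils from bone marrow, was listed at 0 in both H2O libraries and at 116 and 94.0 FPKM in the injured libraries (limma adjusted p = 4.49e-07). Il1rn, the antagonist of the interleukin-1 receptor, stood at 0.280 and 0.0885 FPKM in the H2O libraries and 109.6 and 103 FPKM in the injured libraries, a rise of 6.51 ± 0.15 (limma adjusted p = 5.58e-07). Tnf, the cytokine that kills sensitised hepatocytes, went from 0.372 and 0.199 to 19.9 and 15.9 FPKM, and Il1b from 3.56 and 0.599 to 155 and 86.2 FPKM. In both injured libraries Il1rn lay between the 2 values of Il1b on the FPKM scale. Csf1, the growth factor of macrophages, rose from 2.91 and 2.92 to 22.6 and 15.5 FPKM (2.33 ± 0.18) and Lif, an activator of STAT3, from 0.0539 and 0.0125 to 5.35 and 3.58 FPKM (2.38 ± 0.18). Il18, which is held ready as a precursor, was the 1 member that did not pass, at 14.6 and 11.4 FPKM in the H2O libraries and 21.7 and 14.3 FPKM in the injured libraries.

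Of 20 chemokines 18 rose and 1 fell, at a median of 3.15 against 0.98 in floxed livers. Of the 8 that reached 1 FPKM in all 4 libraries 7 rose and 1 fell. Attractants of monocytes, of neutrophils and of T cells were all among them. Ccl7, a monocyte attractant, stood at 0 and 0.0679 FPKM in the H2O libraries and 141 and 106 FPKM in the injured libraries (6.90 ± 0.25, limma adjusted p = 2.25e-06). Cxcl2, which draws neutrophils, went from 0.272 and 0.132 to 284 and 93.1 FPKM (7.09 ± 0.43), and Cxcl1 from 5.58 and 5.11 to 413 and 241 FPKM (5.64 ± 0.26). The interferon-induced attractants of T cells Cxcl9 (2.78 and 3.08 to 454 and 447 FPKM) and Cxcl10 (1.21 and 1.38 to 1073 and 847 FPKM) rose by 6.84 ± 0.21 and 8.70 ± 0.36. The 2 injured libraries were almost equal in Cxcl9, while Cxcl2 was far higher in the first than in the second. Cxcl12, which holds haematopoietic cells in marrow and is made by stromal cells, was the exception, at 46.4 and 42.7 FPKM in the H2O libraries and 20.9 and 10.7 FPKM in the injured libraries, a change of -1.51 ± 0.28 (limma adjusted p = 0.00236). Ccl24, an attractant of eosinophils, did not pass (0.905 and 1.18 against 2.18 and 1.60 FPKM, limma adjusted p = 0.109).

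The promoters of the neutrophil attractants are shown because these neighbours on chromosome 5 both rose and hold a core of the NF-kB consensus. The 250 bases before each gene start were taken from RefSeq (GRCm38.p6, which differs from the GRCm39 build in the submitters' notes) and are written 5′ to 3′ on the gene's strand, with each match of GGNNTTTCC on either strand in capitals. Cxcl1 (chr5:90890995-90891244, plus strand) holds matches 89 and 70 bases before its start, and Cxcl2 (chr5:90903649-90903898, plus strand) 96 and 77 bases before. Neither promoter holds the 2 other motifs searched here, TTTCNNTTT and TCACNCCAC.

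Cxcl1: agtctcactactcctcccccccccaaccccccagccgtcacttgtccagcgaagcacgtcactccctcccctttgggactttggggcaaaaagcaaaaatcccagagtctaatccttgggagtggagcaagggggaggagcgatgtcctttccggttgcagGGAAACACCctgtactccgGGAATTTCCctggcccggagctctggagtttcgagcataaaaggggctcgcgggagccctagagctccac
Cxcl2: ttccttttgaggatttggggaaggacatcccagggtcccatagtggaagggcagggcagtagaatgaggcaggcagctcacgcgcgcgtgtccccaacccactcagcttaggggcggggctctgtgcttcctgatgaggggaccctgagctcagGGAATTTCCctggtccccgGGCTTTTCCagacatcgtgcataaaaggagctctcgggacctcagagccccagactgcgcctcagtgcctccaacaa

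A match was present in 1518 of 27025 promoters (5.62%). It was present in 6 of the 12 chemokine promoters that could be matched by symbol, in 3 of 10 cytokine promoters and in 5 of 11 promoters of the NF-kB list. Interferon-response promoters held it in 4 of 20 cases, cholesterol synthesis promoters in 2 of 16 and fatty acid synthesis promoters in 2 of 13. Among the genes with a promoter it was present in 7.90% of those that rose (2025) and in 5.63% of those that fell (3697).

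All 25 interferon-response genes rose, at a median of 3.86 against 2.12 in floxed livers, and all 22 that were at or over 1 FPKM in every library were among them. Gbp2 (ENSMUSG00000028270), a guanylate-binding protein that attacks vacuoles and bacterial membranes, stood at 0.801 and 1.06 FPKM in the H2O libraries and 250.3 and 259.7 FPKM in the injured libraries (7.05 ± 0.23, limma adjusted p = 1.74e-06). Cd274, the T cell inhibitor PD-L1, went from 1.10 and 1.01 to 43.0 and 44.3 FPKM (4.44 ± 0.13, limma adjusted p = 9.96e-07), and Gbp5 from 0.431 and 0.426 to 44.6 and 29.7 FPKM (4.71 ± 0.19). The antiviral GTPase Mx2 rose from 4.72 and 4.11 to 81.7 and 78.5 FPKM (3.91 ± 0.16), and Irf8, a transcription factor of macrophages and dendritic cells, from 1.50 and 1.23 to 28.7 and 21.9 FPKM (3.46 ± 0.16). The 2 injured libraries were close in Gbp2, Cd274 and Mx2, while Gbp5 and Irf8 were higher in the first. Of the interferons Ifnb1 was listed at 0 in 3 of the 4 libraries and at 0.125 FPKM in the second injured library, and Ifng stood at 0 and 0.0840 FPKM after H2O and at 1.03 and 0.907 FPKM after injury, so that neither reached 1 FPKM in 2 libraries.

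The promoters of Cxcl10 (chr5:92348890-92349139, minus strand) and Gbp2 (chr3:142620413-142620662, plus strand) are shown with each match of TTTCNNTTT on either strand in capitals, letters of the consensus of interferon-activated factors. The match lies 212 bases before the start of Cxcl10 and 59 bases before that of Gbp2. The Cxcl10 promoter also holds 1 match of GGNNTTTCC, apart from the first.

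Cxcl10: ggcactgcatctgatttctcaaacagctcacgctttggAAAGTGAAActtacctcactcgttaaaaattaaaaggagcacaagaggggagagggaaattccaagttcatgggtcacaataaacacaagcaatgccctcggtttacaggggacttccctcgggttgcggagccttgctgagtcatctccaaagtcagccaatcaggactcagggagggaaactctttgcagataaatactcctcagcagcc
Gbp2: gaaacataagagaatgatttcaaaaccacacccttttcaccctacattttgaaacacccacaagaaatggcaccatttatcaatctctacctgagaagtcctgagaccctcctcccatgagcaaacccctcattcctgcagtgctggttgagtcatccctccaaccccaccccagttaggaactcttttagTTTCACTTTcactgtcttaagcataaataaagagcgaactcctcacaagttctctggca

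This match was present in 2915 of 27025 promoters (10.8%), in 14 of the 20 interferon-response promoters that could be matched, in 11.6% of the promoters of genes that rose and in 7.90% of those of genes that fell.

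Genes of antigen presentation by MHC class I rose in most cases, and those of class II in some. Of 14 MHC genes 9 rose and none fell, against 23.9% and 41.2% over all genes. All 14 were at a median of 1.13 against -0.54 in floxed livers. The peptide transporter Tap1 went from 6.48 and 7.06 to 59.7 and 71.9 FPKM (3.10 ± 0.18, limma adjusted p = 1.4e-05), the peptide loader Tapbp from 12.9 and 14.7 to 67.2 and 71.6 FPKM (2.25 ± 0.19) and the class I heavy chain H2-D1 from 161 and 193 to 803 and 702 FPKM (2.09 ± 0.20), although H2-D1 and its relatives share sequence between which reads may be split. Of class II, Cd74 and H2-Ab1, named after their values were seen, rose by 1.11 ± 0.21 and 0.74 ± 0.23, the second of them not without the first H2O library (0.48, adjusted p = 0.145) or the first injured library (0.53, adjusted p = 0.137). The class II chains H2-Aa (5.30 and 7.19 against 6.73 and 5.44 FPKM) and H2-Eb1 (8.10 and 9.37 against 10.4 and 7.44 FPKM) overlapped between the groups and did not pass, nor did H2-DMa, H2-DMb1 or the light chain of class I, B2m (1710.4 and 1859 against 2347 and 2087 FPKM). Among proteasome genes the 3 inducible catalytic subunits rose, with Psmb8 going from 4.64 and 5.39 to 28.8 and 25.5 FPKM (2.23 ± 0.19, limma adjusted p = 6.1e-05), Psmb10 from 13.6 and 12.8 to 54.2 and 61.7 FPKM (2.05 ± 0.21) and Psmb9 from 6.31 and 6.93 to 20.3 and 23.2 FPKM (1.57 ± 0.16). The constitutive counterparts Psmb5 (53.3 and 63.7 against 81.1 and 64.9 FPKM) and Psmb6 (54.6 and 58.3 against 72.7 and 54.1 FPKM) did not pass. In all, 6 of 24 proteasome genes rose, a share near that over all genes, and 3 fell, and 11 rose after median centring.

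Acute-phase proteins, which hepatocytes secrete under the influence of interleukin-6 and interleukin-1, rose in 20 of 25 cases, and 19 of these were among the 24 genes at or over 1 FPKM in every library. The median was 1.77 in KO and 3.24 in floxed livers. Mt2, a metallothionein like Mt1, stood at 0.159 and 0.0925 FPKM in the H2O libraries and 103 and 105 FPKM in the injured libraries (6.55 ± 0.29, limma adjusted p = 4.47e-06). Saa3, the serum amyloid of macrophages and adipose tissue, went from 1.78 and 1.21 to 494 and 597 FPKM (7.78 ± 0.20), and Lcn2, which starves bacteria of iron, from 1.23 and 1.24 to 686 and 1402 FPKM (8.78 ± 0.31). Lcn2 was higher in the second injured library than in the first, and Mt2 was almost equal in them. Saa4, the constitutive serum amyloid, did not pass, at 93.9 and 118 against 132 and 79.5 FPKM (-0.04 ± 0.37), and the iron hormone Hamp did not either, at 2273 and 2702 against 1356 and 1929.6 FPKM (limma adjusted p = 0.0907). Itih3, an inter-alpha-trypsin inhibitor chain, was the 1 gene that fell, at 459 and 436 FPKM in the H2O libraries and 162 and 303 FPKM in the injured libraries (-1.01 ± 0.29, limma adjusted p = 0.0166), a call that was lost after median centring and without the first H2O library (-0.97, adjusted p = 0.0608) or the first injured library (-0.56, adjusted p = 0.0672). In the IL-6 pathway itself 13 of 14 genes rose. The feedback inhibitors Socs3 (4.51 and 2.95 to 299.8 and 220.1 FPKM) and Socs1 (0.193 and 0.0561 to 43.0 and 33.3 FPKM) rose by 5.79 ± 0.22 and 5.11 ± 0.17, and the receptor Lifr alone fell, from 45.6 and 52.3 to 14.2 and 13 FPKM (-1.77 ± 0.18, limma adjusted p = 0.000139).

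Stress response genes rose in part. Of 19 genes 10 rose and 1 fell, against 23.9% and 41.2% over all genes, but with no filter on low values the rises were 6. Targets of the integrated stress response were among the rises. Ppp1r15a, the phosphatase subunit GADD34, went from 5.73 and 4.76 to 83.0 and 46.7 FPKM (3.35 ± 0.26, limma adjusted p = 3.84e-05), and Ddit3, the factor CHOP, from 8.13 and 7.46 to 20.9 and 29.9 FPKM (1.56 ± 0.20). Several chaperones of the endoplasmic reticulum did not pass. Hspa5, the chaperone BiP, stood at 88.9 and 165 FPKM in the H2O libraries and 158 and 263 FPKM in the injured libraries (0.75 ± 0.45, limma adjusted p = 0.183), Pdia4 at 64.2 and 109 against 53.2 and 49.5 FPKM and Hsp90b1 at 158 and 175 against 118 and 149 FPKM. In floxed livers all 3 rose, Hspa5 from 80.1 and 182 to 1014 and 936 FPKM (limma adjusted p = 0.00106), Pdia4 by 1.67 ± 0.34 and Hsp90b1 by 1.93 ± 0.23, and the genotypes differed by -2.37 ± 0.48 in Pdia4 and by -2.26 ± 0.32 in Hsp90b1 (limma adjusted p = 0.00915 and 0.00289). The sensor Ern1 was the 1 gene that fell, from 12.2 and 11.2 to 2.88 and 2.05 FPKM (-1.88 ± 0.16, limma adjusted p = 6.54e-05). The falls were 2 without the first H2O or the second injured library.

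All 21 immediate early genes rose, the 11 at or over 1 FPKM in every library among them, with a median of 3.34 against 1.05 in floxed livers. Atf3 (ENSMUSG00000026628), a transcription factor that restrains inflammation, stood at 0.871 and 0.682 FPKM in the H2O libraries and 97.9 and 104 FPKM in the injured libraries (5.84 ± 0.17, limma adjusted p = 9.96e-07). Maff, a partner of the AP-1 family, went from 0.867 and 0.608 to 39.7 and 38.5 FPKM (4.53 ± 0.13), Ier3 from 0.705 and 0.962 to 302 and 134 FPKM (6.79 ± 0.33) and Junb from 5.77 and 4.28 to 483 and 287 FPKM (5.96 ± 0.27). Ier3 and Junb were higher in the first injured library than in the second, whereas Atf3 and Maff were close in both. Among p53 targets 11 of 14 rose, with Cdkn1a, the cell cycle inhibitor p21, going from 2.70 and 2.63 to 69.3 and 70.2 FPKM and the antiproliferative Btg2 from 4.53 and 3.75 to 113 and 204 FPKM (4.90 ± 0.27, limma adjusted p = 9.55e-06). Trp53 itself (11.1 and 12.8 against 10.8 and 9.28 FPKM) and its target Ccng1 (4.58 and 5.31 against 5.76 and 6.97 FPKM, 0.31 ± 0.15) did not pass. Ccng1 rose in floxed livers by 3.17 ± 0.15, and the genotypes differed by -2.86 ± 0.21 (limma adjusted p = 0.000661).

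Of 17 death receptor genes 13 rose and 3 fell, against 23.9% and 41.2% over all genes. Mlkl, the pore-forming effector of necroptosis, stood at 2.71 and 2.24 FPKM in the H2O libraries and 24.3 and 23.2 FPKM in the injured libraries (2.83 ± 0.14, limma adjusted p = 6.55e-06), and Tnfrsf1b, the second receptor of TNF, at 4.75 and 4.50 FPKM in the H2O libraries and 57.6 and 41.2 FPKM in the injured libraries (3.15 ± 0.19). The ubiquitin ligases Birc3 (6.16 and 4.39 to 47.3 and 38.6 FPKM) and Birc2 (9.25 and 7.35 to 51.6 and 39.6 FPKM), which hold the TNF receptor complex in its survival state, rose by 2.82 ± 0.20 and 2.32 ± 0.21. The caspase inhibitor Xiap fell from 14.4 and 11 to 5.91 and 5.15 FPKM (-1.06 ± 0.16, limma adjusted p = 0.000935), as did the adaptor Tradd (6.78 and 6.91 to 3.74 and 3.20 FPKM, -0.81 ± 0.17). Casp8, the initiator caspase, did not pass (10.3 and 11.9 against 10.9 and 16.1 FPKM). In the mitochondrial pathway 9 of 18 genes rose and 3 fell, but 4 rose and 2 fell among the 12 at or over 1 FPKM in all 4 libraries, and with a mean of at least 5 FPKM 3 rose and 1 fell. Bcl2l1, the survival factor Bcl-xL, went from 6.0 and 5.41 to 27.1 and 57.1 FPKM (2.59 ± 0.32, limma adjusted p = 0.000307), and Apaf1, the scaffold of the apoptosome, from 0.436 and 0.362 to 4.81 and 3.93 FPKM (1.94 ± 0.14). Casp9, the caspase that the apoptosome activates, fell from 4.43 and 3.70 to 0.838 and 0.922 FPKM (-1.43 ± 0.13, limma adjusted p = 7.54e-05), and Bbc3, the p53 target PUMA, from 16.4 and 12.6 to 2.34 and 3.32 FPKM (-2.02 ± 0.32). Among inflammasome genes Nlrp3 (0.208 and 0.362 to 11.2 and 6.07 FPKM, 2.86 ± 0.26) and Casp4, the intracellular LPS receptor of mice (0.796 and 0.425 to 14.2 and 10.8 FPKM, 3.07 ± 0.18), rose, and the pore protein Gsdmd did not pass (20.3 and 18.1 against 22.6 and 22.8 FPKM, limma adjusted p = 0.286).

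**Figure D2:**
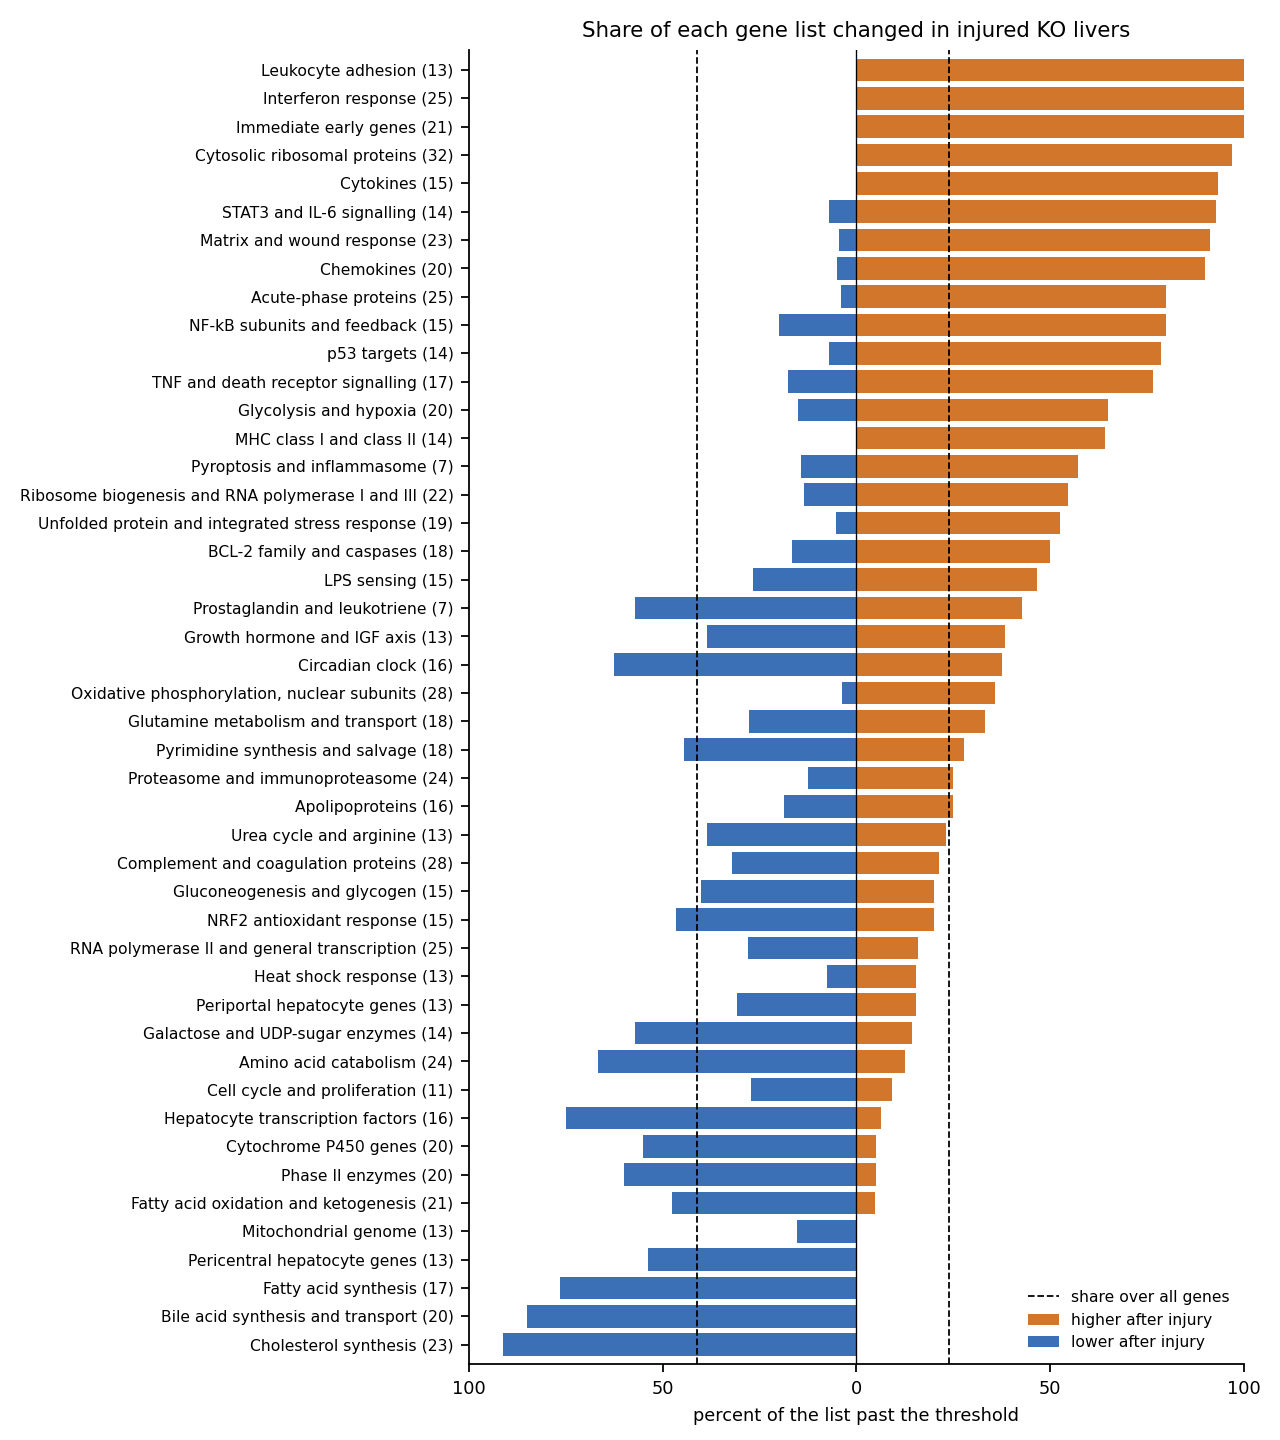
Share of each gene list that passed in injured KO livers, with the number of its genes in parentheses. Orange bars to the right show the percent that rose, blue bars to the left the percent that fell, and dashed lines the shares over all 12657 genes (23.9% and 41.2%). Lists of inflammation, immediate early genes and ribosomal proteins lie at the top, and cholesterol, bile acid and fatty acid synthesis at the bottom.

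Bile acid genes fell in 17 of 20 cases and none rose, with similar medians in KO (-1.65) and floxed livers (-1.49). The bile acid receptor Nr1h4 (ENSMUSG00000047638), FXR, stood at 90.8 and 105 FPKM in the H2O libraries and 13.4 and 12.9 FPKM in the injured libraries (-2.80 ± 0.20, limma adjusted p = 2.58e-05). Abcc2, the canalicular exporter of bilirubin conjugates, went from 96.1 and 64.4 to 7.25 and 10.5 FPKM (-3.03 ± 0.25), and Akr1d1, the bile acid reductase, from 40.6 and 49.3 to 10.5 and 9.50 FPKM (-2.06 ± 0.18). Cyp7a1 went from 24.1 and 41.5 to 0.164 and 0.248 FPKM. All of these genes were lower in both injured libraries than in either H2O library, where 80.9% of all genes had groups that did not overlap. The 3 that did not pass were Slc27a5 (214 and 241 against 197 and 201 FPKM), which conjugates bile acids with coenzyme A, the importer Slco1a1 (39.4 and 44.1 against 29.5 and 30.7 FPKM) and Cyp7b1 of the alternative pathway (50.0 and 90.1 against 44.0 and 33.2 FPKM, -0.80 ± 0.34). Cyp7b1 passed without the first H2O library (-1.22, adjusted p = 0.0267).

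Cholesterol synthesis fell in 21 of 23 genes, the highest share of any list, at a median of -1.65 against -1.10 in floxed livers. Hmgcs1 (ENSMUSG00000093930), the enzyme that makes the substrate of the statin target, stood at 108 and 87.9 FPKM in the H2O libraries and 5.57 and 5.97 FPKM in the injured libraries (-3.87 ± 0.19, limma adjusted p = 6.44e-06). Lss, lanosterol synthase, went from 11.7 and 10.8 to 1.04 and 1.24 FPKM (-2.52 ± 0.13), Fdps, which makes farnesyl diphosphate, from 12.7 and 6.76 to 0.230 and 0.179 FPKM (-3.10 ± 0.24) and Insig1, the sterol sensor that retains SREBP, from 186 and 168 to 25.6 and 24.1 FPKM (-2.78 ± 0.20). Enzymes from the start to the end of the pathway and its feedback sensor fell together. Pmvk (22.4 and 27.3 against 28.6 and 16.8 FPKM) and Ebp (69.1 and 91.7 against 67.9 and 57.1 FPKM) did not pass. For Hsd17b7, a late enzyme of the pathway, the fall from 8.16 and 7.65 to 1.37 and 1.01 FPKM (-2.03 ± 0.17) differed from the change of 0.25 ± 0.17 in floxed livers by -2.28 ± 0.23 (limma adjusted p = 0.00123). The promoter of Hmgcs1 (chr13:119690101-119690350, plus strand) is shown because it holds, 137 bases before the start, the only match in the list of TCACNCCAC, a core of the element bound by SREBP, in capitals. It also holds 1 match of GGNNTTTCC, apart from it.

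Hmgcs1: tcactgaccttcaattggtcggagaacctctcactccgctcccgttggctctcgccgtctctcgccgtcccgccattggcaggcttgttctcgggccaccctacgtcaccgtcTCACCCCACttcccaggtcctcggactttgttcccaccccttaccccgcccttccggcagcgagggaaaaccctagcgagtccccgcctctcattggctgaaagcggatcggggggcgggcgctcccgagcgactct

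This match was present in 331 of 27025 promoters (1.22%), in 1 of 16 cholesterol synthesis promoters, and in 1.23% and 1.65% of the promoters of genes that rose and fell.

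Fatty acid synthesis fell in 13 of 17 genes and none rose, except that 1 rose after median centring. Gpam, which starts triglyceride synthesis, stood at 33.0 and 34.9 FPKM in the H2O libraries and 2.10 and 1.62 FPKM in the injured libraries (-3.62 ± 0.16, limma adjusted p = 4.92e-06), and the fatty acid synthase Fasn at 66.6 and 80.4 FPKM in the H2O libraries and 6.91 and 6.48 FPKM in the injured libraries (-3.27 ± 0.26). The regulators Srebf1 (37.8 and 55.5 to 7.39 and 6.38 FPKM) and Mlxipl, the carbohydrate sensor ChREBP (447 and 309 to 82.8 and 90.2 FPKM), fell, with changes of -2.57 ± 0.22 and -2.09 ± 0.27. Scd1, the abundant desaturase, did not pass (736 and 1052 against 607 and 660.0 FPKM). On the side of oxidation 10 of 21 genes fell, a share near the 41.2% over all genes. Ppara, the receptor that drives fatty acid oxidation, fell from 16.9 and 13.8 to 1.60 and 1.62 FPKM (-2.65 ± 0.17, limma adjusted p = 1.8e-05). The mitochondrial trifunctional subunits Hadha (14.0 and 23.1 against 20.4 and 17.6 FPKM) and Hadhb (7.20 and 11.2 against 10.5 and 9.63 FPKM) did not pass.

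Factors that maintain the hepatocyte state fell in 12 of 16 cases, or in 7 of the 11 at or over 1 FPKM in all 4 libraries, at a median of -1.28 against -1.15 in floxed livers. The xenobiotic receptor Nr1i3 (CAR) stood at 18.1 and 12.2 FPKM in the H2O libraries and 1.07 and 0.894 FPKM in the injured libraries (-3.00 ± 0.19, limma adjusted p = 1.66e-05). Tbx3, which marks hepatocytes around the central vein, went from 5.15 and 5.26 to 0.371 and 0.369 FPKM (-2.18 ± 0.15) and Onecut1 from 7.37 and 10.9 to 0.480 and 1.02 FPKM (-2.53 ± 0.24). The groups were far apart in all 3, and did not overlap in 80.9% of all genes. Hnf4a, the central regulator of the hepatocyte programme, was different, because the injured libraries lay on either side of the H2O libraries (90.1 and 88.6 against 34.3 and 124 FPKM, -0.44 ± 0.50, limma adjusted p = 0.464). Without the second injured library it passed (-1.35, adjusted p = 0.00386). Foxa3 had the same layout (16.9 and 28.0 against 16.6 and 43.9 FPKM) and did not pass. Nr5a2 was the 1 gene that rose, from 5.26 and 4.96 to 7.17 and 8.08 FPKM (0.50 ± 0.14, limma adjusted p = 0.0141), and that call ended without the second H2O library (adjusted p = 0.0572) or the second injured library (0.0543).

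Genes of hepatocyte metabolism fell in part. Of 24 genes of amino acid catabolism 16 fell and 3 rose, with Hal, histidine ammonia-lyase, going from 91.4 and 79.1 to 10.6 and 6.25 FPKM (-3.23 ± 0.25, limma adjusted p = 3.97e-05) and the next enzyme of the same pathway, Uroc1, from 296 and 232 to 52.9 and 40.3 FPKM (-2.48 ± 0.23). The serine dehydratase Sds went the other way, from 76.3 and 51.9 to 134 and 270.2 FPKM (1.58 ± 0.34, limma adjusted p = 0.00432). Of 20 conjugating enzymes 12 fell and 1 rose, Nnmt, which methylates nicotinamide (32.2 and 46.5 to 64.7 and 91.4 FPKM), and its call was lost without the first H2O (0.71, adjusted p = 0.0635) or the second injured library (0.73, adjusted p = 0.0624). Cytochrome P450 genes fell in 11 of 20 cases, against 41.2% over all genes, but in 6 after median centring. Fewer also fell without the second H2O library or without the first injured library. Cyp3a25 (612 and 364 to 95.3 and 78.4 FPKM, -2.43 ± 0.29) and Cyp2c37 (139 and 139 to 48.4 and 66.7 FPKM, -1.27 ± 0.24) fell, both members of families of near relatives between which reads may be split, whereas Cyp2e1 (725 and 1178 against 817 and 1143 FPKM), Cyp3a11 (585 and 697 against 499 and 518 FPKM) and Cyp1a2 (213 and 307 against 194 and 247 FPKM) did not pass. Their reductase Por rose, from 18.7 and 26.1 to 55.2 and 84.0 FPKM (1.58 ± 0.26, limma adjusted p = 0.0012). Of 28 complement and coagulation genes 6 rose and 9 fell, shares under those over all genes. F3, tissue factor, which starts coagulation, went from 2.28 and 1.55 to 20.5 and 13.1 FPKM (2.59 ± 0.23, limma adjusted p = 6.85e-05). F3 was at -0.69 ± 0.23 in floxed livers, and the genotypes differed by 3.28 ± 0.32 (limma adjusted p = 0.00109).

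Within glycolysis enzyme forms that are common outside hepatocytes rose while the liver form of pyruvate kinase fell. Of 20 genes 13 rose and 3 fell, or 8 and 3 of the 15 at or over 1 FPKM in all 4 libraries, with a median of 1.67 against 0.28 in floxed livers. Pfkfb3, which makes an activator of glycolysis, stood at 0.862 and 0.921 FPKM in the H2O libraries and 56.4 and 51.3 FPKM in the injured libraries (4.86 ± 0.16, limma adjusted p = 1.92e-06). Hexokinase 1 (Hk1) went from 0.324 and 0.427 to 5.34 and 3.73 FPKM (1.99 ± 0.17), the glucose transporter Slc2a1 from 3.25 and 3.76 to 35.0 and 22.0 FPKM (2.68 ± 0.23) and the pyruvate kinase Pkm from 1.95 and 1.98 to 64.9 and 41.8 FPKM (4.16 ± 0.24). The liver pyruvate kinase Pklr fell from 36.0 and 44.7 to 15.3 and 15.4 FPKM (-1.33 ± 0.26, limma adjusted p = 0.00301). In the H2O livers Pklr exceeded Pkm, and in the injured livers Pkm exceeded Pklr, in both libraries of each group. Vegfa, the angiogenic factor, also fell, from 120.1 and 86.7 to 40.7 and 26.5 FPKM (-1.61 ± 0.28). Of 15 genes of gluconeogenesis and glycogen 6 fell and 3 rose, shares near those over all genes, and 5 rose after median centring. Ppp1r3b, which targets a phosphatase to glycogen, fell from 86.1 and 60.8 to 6.54 and 3.80 FPKM (-3.61 ± 0.33), and Igfbp1, which binds insulin-like growth factors, rose from 79.2 and 21.4 to 631 and 1302 FPKM (4.42 ± 0.60, limma adjusted p = 0.000493).

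The enzymes that handle galactosamine and uridine were followed because D-galactosamine enters hepatocytes by the galactose route. Of 14 galactose and UDP-sugar genes 8 fell and 2 rose, against 41.2% and 23.9% over all genes, and 4 rose after median centring. Galt, which joins galactose to UDP, stood at 39.0 and 36.7 FPKM in the H2O libraries and 10.3 and 7.37 FPKM in the injured libraries (-2.00 ± 0.20, limma adjusted p = 0.000112), and Ugdh, which makes UDP-glucuronic acid, at 23.1 and 22.6 FPKM in the H2O libraries and 4.29 and 3.60 FPKM in the injured libraries (-2.27 ± 0.16). Pgm2 rose, from 1.16 and 1.05 to 24.8 and 12.8 FPKM (3.16 ± 0.27, limma adjusted p = 5.87e-05), and the kinase that starts the route, Galk1, did not pass (13.1 and 18.3 against 31.8 and 22.7 FPKM). Of 18 pyrimidine genes 8 fell and 5 rose, shares near those over all genes, or 7 and 2 of the 14 at or over 1 FPKM in all 4 libraries. Upp1 (ENSMUSG00000020407), which splits uridine, went from 1.00 and 0.805 to 69.2 and 65.2 FPKM (5.16 ± 0.13, limma adjusted p = 5.58e-07), Cmpk2, an interferon-induced nucleotide kinase, from 1.97 and 1.57 to 25.8 and 41.5 FPKM (3.61 ± 0.33) and Ctps, which makes CTP, from 1.47 and 2.77 to 11.7 and 8.50 FPKM (1.85 ± 0.23). The uridine kinase Uck1 fell from 18.6 and 17.5 to 4.06 and 5.82 FPKM (-1.70 ± 0.17, limma adjusted p = 0.000129), and the first enzyme of synthesis, Cad, did not pass (1.88 and 2.57 against 1.84 and 1.44 FPKM).

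Of 13 urea cycle and arginine genes 3 rose and 5 fell, shares near those over all genes, and 8 fell after quantile normalisation. Nos2, inducible nitric oxide synthase, stood at 0.0950 and 0.0123 FPKM in the H2O libraries and 13.6 and 15.4 FPKM in the injured libraries (3.88 ± 0.20, limma adjusted p = 7.43e-06), and Odc1, which starts polyamine synthesis, at 6.47 and 11.5 FPKM in the H2O libraries and 191 and 145 FPKM in the injured libraries (4.12 ± 0.28). Arg1 of the hepatic urea cycle fell from 495 and 545 to 272 and 155 FPKM (-1.34 ± 0.27, limma adjusted p = 0.00365), and Arg2 rose from 0 and 0.0381 to 8.92 and 6.12 FPKM (3.04 ± 0.20). Of 18 glutamine genes 6 rose and 5 fell, the share that rose over the 23.9% and the share that fell under the 41.2% over all genes. Fewer fell without the first injured library or without the second H2O library. When mitochondrial and haemoglobin genes were left out of the scaling, 9 fell. The liver glutaminase Gls2 fell from 121 and 118 to 38.3 and 24.7 FPKM (-1.92 ± 0.22, limma adjusted p = 0.000235), and the hepatic amino acid transporter Slc38a4 from 115 and 129.5 to 58.4 and 48.7 FPKM (-1.18 ± 0.19). The glutamine transporters Slc38a2 (13.4 and 9.50 to 52.6 and 40.1 FPKM, 1.93 ± 0.23) and Slc1a5 (3.10 and 2.40 to 7.06 and 6.92 FPKM, 1.10 ± 0.14) rose as well.

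All 16 clock genes changed, 10 downwards and 6 upwards, against 65.1%, 41.2% and 23.9% over all genes. Of the 12 at or over 1 FPKM in all 4 libraries 7 fell and 5 rose. Hlf, an output factor, stood at 4.96 and 5.55 FPKM in the H2O libraries and 0.579 and 0.583 FPKM in the injured libraries (-1.98 ± 0.13, limma adjusted p = 2.21e-05), and Npas2, a partner of the activator BMAL1, at 3.61 and 3.57 FPKM in the H2O libraries and 1.19 and 1.11 FPKM in the injured libraries (-1.10 ± 0.12). The repressor Nr1d1 (REV-ERBα) went up from 3.82 and 3.54 to 55.9 and 68.0 FPKM (3.74 ± 0.17, limma adjusted p = 5.33e-06), and Per1 from 0.791 and 0.831 to 18.4 and 27.3 FPKM (3.69 ± 0.23). Per2, the paralog of Per1, went down from 7.86 and 9.13 to 1.07 and 1.69 FPKM (-2.01 ± 0.20, limma adjusted p = 0.000117). The hour of collection is not stated, and its part in these values was not tested. The rise of Nr1d1 was smaller in floxed livers (0.91 ± 0.17), and the genotypes differed by 2.83 ± 0.24 (limma adjusted p = 0.000779).

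Cytosolic ribosomal proteins rose in 31 of 32 cases, at a median of 1.41 in KO and -0.18 in floxed livers. Rps9 (ENSMUSG00000006333) stood at 31.2 and 39.1 FPKM in the H2O libraries and 207 and 139 FPKM in the injured libraries (2.25 ± 0.24, limma adjusted p = 0.00017) and Rpl13 at 47.1 and 55.6 FPKM in the H2O libraries and 269.8 and 179 FPKM in the injured libraries (2.08 ± 0.25). The genotypes differed by 2.46 ± 0.35 in Rpl13 (limma adjusted p = 0.00283), which was at -0.38 ± 0.25 in floxed livers. Rps10 alone did not pass (3.57 and 2.66 against 4.08 and 2.44 FPKM). Ribosomal protein genes have many processed copies, so that the counting of shared reads bears on their level. Of 28 nuclear genes of the respiratory chain 10 rose and 1 fell, against 23.9% and 41.2% over all genes. The rises were 3 without the first H2O library, 2 without the first injured library and 5 with no filter on low values. Cox4i1 went from 150.0 and 192 to 359.8 and 281 FPKM (0.90 ± 0.21, limma adjusted p = 0.00725).

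In injured KO livers genes with a short summed exon length had higher median changes than those with a long one, and in injured floxed livers lower. The length covers all annotated exons of a gene, not the transcript present in liver. Among protein-coding genes with an exon length, the median change in KO livers was 0.38 in genes with up to 1 kb of exons (n = 300), 0.18 from 1 to 2 kb (n = 1279), -0.16 from 2 to 4 kb (n = 3351), -0.35 from 4 to 8 kb (n = 3868) and -0.45 over 8 kb (n = 1631). In floxed livers the medians were -0.71, -0.39, -0.23, -0.15 and -0.15 in the same order. The share that rose in KO livers went from 41.0% in the shortest to 14.4% in the longest genes, and the share that fell from 18.7% to 52.3%. Without ribosomal and respiratory chain genes the medians were 0.32, 0.13, -0.17, -0.35 and -0.44. After median centring the genes of 2 to 4 kb were at 0.07, and without single libraries the shortest genes lay between 0.21 (without the first injured library) and 0.61 (without the second), while genes of 1 to 2 kb were at 0.06 without the first H2O library and 0.08 without the first injured library. The first injured library exceeded the second by a median of 0.34 in the shortest and 0.03 in the longest genes, so that length also separated libraries within the group. The part of this difference between libraries in the medians was not tested. Of 586 processed pseudogenes 41.1% rose (median 0.42, floxed -0.19), and of 808 long non-coding RNAs 60.5% fell (median -0.81, floxed -0.79).

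**Figure D3:**
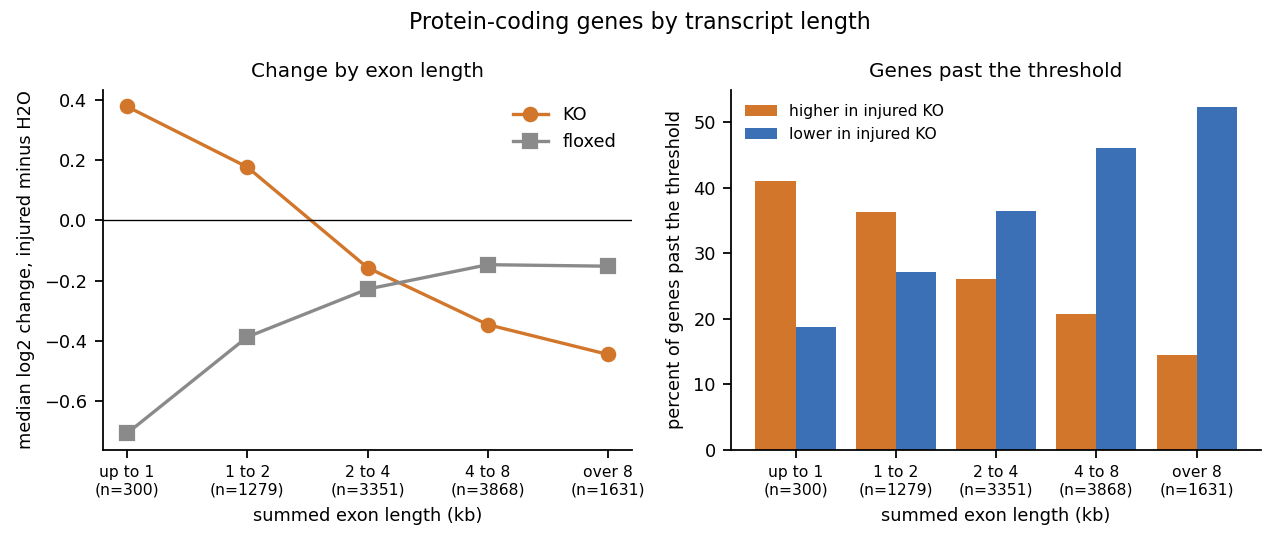
Left, the median log2 change of protein-coding genes by summed exon length, in KO livers (orange circles) and floxed livers (grey squares). Right, the percent of genes in each length class that rose (orange) or fell (blue) in injured KO livers. The KO medians run from 0.38 in the shortest to -0.45 in the longest genes, and the floxed medians from -0.71 to -0.15.

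Genes of matrix and wound response rose in 21 of 23 cases, most of which reached 1 FPKM only after injury and could only differ upwards, at a median of 2.89 against 1.15 in floxed livers. Of the 8 at or over 1 FPKM in all 4 libraries 6 rose and 1 fell. Timp1 (ENSMUSG00000001131), an inhibitor of matrix metalloproteinases, stood at 0.0528 and 0 FPKM in the H2O libraries and 76.4 and 64.1 FPKM in the injured libraries (6.11 ± 0.14, limma adjusted p = 5.58e-07). Inhbb, an activin subunit, went from 0.0992 and 0.0895 to 52.8 and 30.0 FPKM (5.22 ± 0.24), the urokinase receptor Plaur from 0.215 and 0.208 to 37.9 and 23.6 FPKM (4.67 ± 0.24) and Thbs1, thrombospondin of platelets and stroma, from 0.0926 and 0.0358 to 58.7 and 30.6 FPKM (5.35 ± 0.29). The first injured library was the higher in all 4. Inhba, the other activin chain, fell from 8.83 and 11.4 to 2.33 and 1.78 FPKM (-1.86 ± 0.21, limma adjusted p = 0.000206), and Fn1 did not pass (56.0 and 70.9 against 51.5 and 57.5 FPKM). All 13 genes of leukocyte adhesion rose, of which 6 were at or over 1 FPKM in all 4 libraries. Icam1, the ligand of neutrophil integrins on endothelium and hepatocytes, stood at 2.63 and 1.93 FPKM in the H2O libraries and 86.7 and 65.4 FPKM in the injured libraries (4.55 ± 0.21, limma adjusted p = 5.57e-06), and Itgb2, the integrin chain on the leukocyte side, at 1.38 and 1.71 FPKM in the H2O libraries and 25.8 and 20.9 FPKM in the injured libraries (3.25 ± 0.17). Selplg, the ligand of selectins on leukocytes, went from 0.406 and 0.535 to 9.18 and 9.46 FPKM (2.81 ± 0.14).

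Marker lists of several cell types, but not of all, were higher after injury, where 23.9% of all genes rose and 41.2% fell. All 10 neutrophil markers rose, although only 2 of them reached 1 FPKM in all 4 libraries and the others could only differ upwards, and their summed level went from 6.89 and 4.93 FPKM to 997 and 1069 FPKM, against 113 and 178 FPKM in injured floxed livers. Retnlg, a resistin-like protein of neutrophils, stood at 0.237 and 0.367 FPKM in the H2O libraries and 36.4 and 33.9 FPKM in the injured libraries (4.80 ± 0.20, limma adjusted p = 3.87e-06), and Cxcr2, the receptor of Cxcl1 and Cxcl2, at 0.215 and 0.125 FPKM in the H2O libraries and 7.70 and 10.2 FPKM in the injured libraries (3.08 ± 0.17). The monocyte genes Chil3 (0 and 0.0667 to 20.8 and 32.8 FPKM) and Ly6c2 (0.171 and 0.139 to 8.55 and 11.7 FPKM) rose by 4.71 ± 0.20 and 3.25 ± 0.19, whereas the receptor Ccr2 was under the limit, at 0.236 and 0.233 FPKM after H2O and 0.495 and 0.229 FPKM after injury. The summed level of the 10 monocyte and macrophage markers was 69.2 and 93.7 FPKM after H2O and 147 and 160 FPKM after injury, of which Fn1, which hepatocytes also express, made up 56.0 and 70.9 FPKM and then 51.5 and 57.5 FPKM. In floxed livers the same sum went from 85.2 and 106 FPKM to 297 and 270.0 FPKM, above that in injured KO livers. The part of Fn1 in the floxed sums is not given here. Of the 5 monocyte and macrophage markers that passed the filter, the change was more positive in KO livers in 3 and more negative in 1. Over all genes these shares were 22.3% and 15.2%. Of T and NK cell markers 2 of the 3 that passed the filter rose, and neither of these was at or over 1 FPKM in all 4 libraries. The summed level of the list was 4.92 and 4.59 FPKM after H2O and 15.3 and 11.7 FPKM after injury. Under the limit, Klrb1c was at 0.0950 and 0.0551 against 0.204 and 0.333 FPKM. Cd3e, Cd3d and Trac, also under the limit, overlapped between the groups, Cd3e being at 0.241 and 0.213 against 0.425 and 0.196 FPKM. Of 5 B cell markers 1 rose, and the sums overlapped, at 46.9 and 38.5 FPKM against 46.2 and 42.0 FPKM. Of 6 hepatocyte markers 1 rose and none fell, and no mesothelial marker reached the limit. No marker gene of these lists was at 0 in all 4 KO libraries, and the part of cell numbers in the gene changes above was not tested.

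Kupffer cell markers had a summed level of 114 and 129 FPKM after H2O and 506 and 273 FPKM after injury, while floxed livers went from 260 and 299 FPKM to 58.5 and 87.8 FPKM. Of 9 genes 6 rose and none fell, against 23.9% and 41.2% over all genes. Without the first H2O library 3 rose, as did 3 without the first injured library. Marco, a scavenger receptor that also marks inflammatory macrophages, went from 2.19 and 2.12 to 180.5 and 79.3 FPKM. The complement chain C1qb went from 16.5 and 22.2 to 122 and 68.8 FPKM (2.20 ± 0.34, limma adjusted p = 0.000897). Timd4, also in this list, was among the 6 that rose. The 3 that did not pass in KO livers were Clec4f (35.2 and 29.9 against 59.4 and 28.3 FPKM), Vsig4 (5.31 and 6.75 against 6.11 and 3.45 FPKM) and Cd5l (22.1 and 26.2 against 22.9 and 15.5 FPKM). In floxed livers they fell, with changes of -2.77 ± 0.36, -1.91 ± 0.26 and -2.77 ± 0.24, and the genotypes differed by 3.10 ± 0.51, 1.60 ± 0.36 and 2.43 ± 0.34 (limma adjusted p = 0.00433, 0.0129 and 0.00263). With no filter on low values the difference for Vsig4 did not pass (adjusted p = 0.056).

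Sinusoidal endothelial markers went in both directions, 3 of 8 rising and 2 falling, against 23.9% and 41.2% over all genes. The falls were 1 without either H2O library or without the second injured library. Lyve1, a hyaluronan receptor, stood at 0.803 and 0.690 FPKM in the H2O libraries and 69.2 and 45.9 FPKM in the injured libraries (5.04 ± 0.24, limma adjusted p = 5.9e-06), and the scavenger receptor Stab1 at 6.81 and 6.19 FPKM in the H2O libraries and 37.5 and 23.2 FPKM in the injured libraries (2.03 ± 0.23). Kdr, the VEGF receptor, fell from 2.37 and 1.92 to 0.259 and 0.182 FPKM (-1.36 ± 0.14, limma adjusted p = 0.000131), and Fcgr2b (6.30 and 5.69 against 6.58 and 4.69 FPKM) and Clec4g (10.6 and 10.1 against 10.2 and 4.69 FPKM) did not pass. Without the first injured library Clec4g passed (-0.99, adjusted p = 0.00238). Dcn, decorin of stellate cells and fibroblasts, rose from 8.95 and 11.4 to 80.4 and 43.9 FPKM (2.44 ± 0.33, limma adjusted p = 0.000492), and the stellate retinol enzyme Lrat did not pass (4.20 and 1.75 against 3.56 and 1.05 FPKM). All 4 platelet genes rose, 1 of them at or over 1 FPKM in all 4 libraries, with a summed level of 2.05 and 2.30 FPKM after H2O and 61.6 and 18.3 FPKM after injury. The summed level of 6 red blood cell genes was 171 and 244 FPKM after H2O and 26160 and 3742 FPKM after injury, so that both blood lists were several times higher in the first injured library than in the second.

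**Figure D4:**
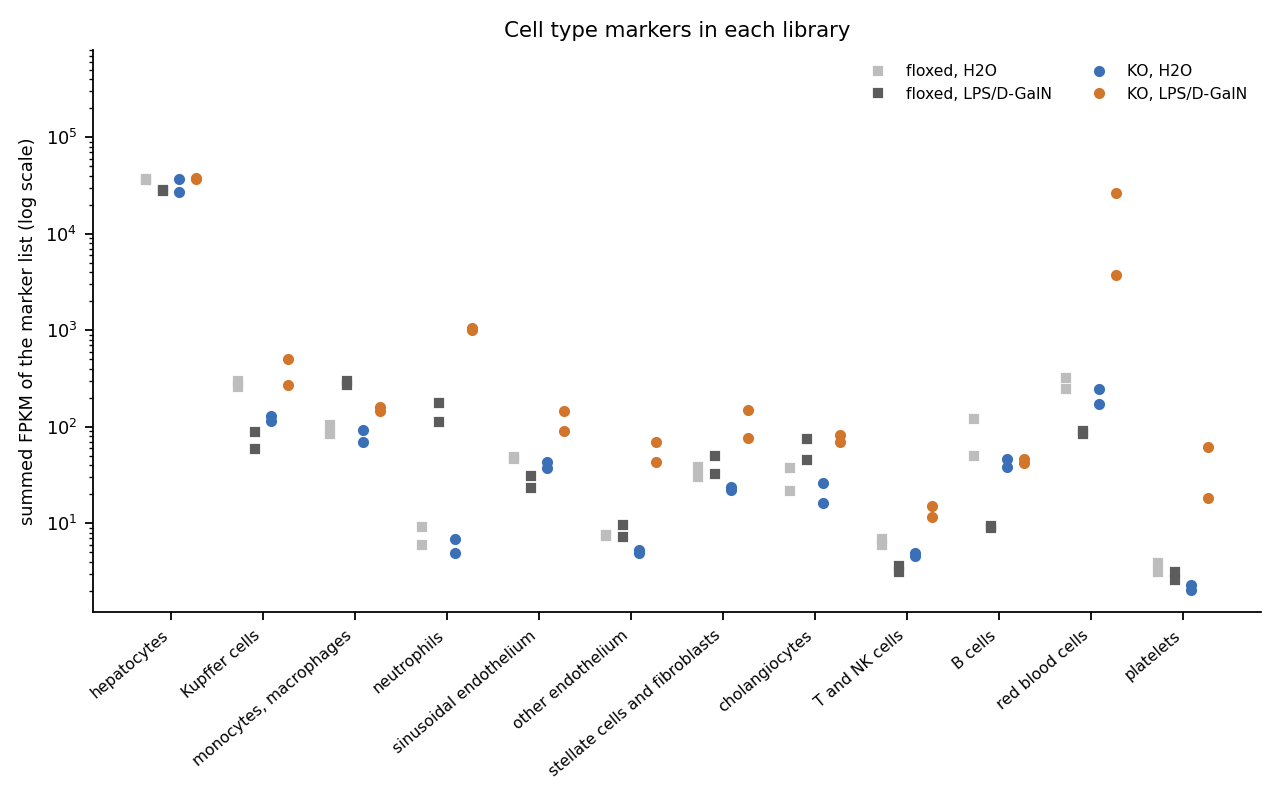
Summed FPKM of 12 cell type marker lists in each of the 8 libraries, on a log scale. Squares are floxed livers (light grey after H2O, dark grey after LPS/D-GalN), and circles are KO livers (blue after H2O, orange after LPS/D-GalN). Neutrophil, platelet and red blood cell sums were higher in injured KO livers than in any other library. So were the sums of sinusoidal and other endothelium, of stellate cells and fibroblasts, and of T and NK cells. The 2 injured KO libraries stood apart in red blood cells and platelets.

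The injured libraries differed from each other about as much as the H2O libraries did for most genes. For the 5452 genes whose mean reached 5 FPKM the median absolute gap between the libraries of a group was 0.27 after injury and 0.24 after H2O on the log2 scale. A gap over 1 was found in 204 genes after injury and in 90 after H2O. Of the 204, 115 were higher in the first injured library and 89 in the second. Among the 8 widest gaps were those of the beta-globins Hbb-bt (3267 and 226 FPKM) and Hbb-bs (15828 and 2499 FPKM) and the alpha-globin Hba-a1 (6232 and 879 FPKM), higher in the first library, and of Lpin2, a phosphatidate phosphatase, which was 25.3 and 10.6 FPKM after H2O and 2.75 and 20.7 FPKM after injury. Globin genes are close copies between which reads may be split.

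The change after injury differed between KO and floxed livers in 4746 of the 12657 genes (37.5%). It was more positive in KO livers in 2821 genes (22.3%) and more negative in 1925 (15.2%). Of these genes 583 passed in opposite directions in the genotypes, 336 up and 247 down in KO livers. The count of differing genes was 3146 without the first H2O-treated floxed library, 2896 without the first injured floxed library and 2834 with no filter on low values. Ccn1, a matrix protein of stressed stroma, showed opposite directions, at 5.57 and 3.75 FPKM after H2O and 163 and 82.6 FPKM after injury in KO livers and at 4.01 and 7.80 against 2.28 and 2.23 FPKM in floxed livers (5.42 ± 0.52, limma adjusted p = 0.00106). An entry listed as 7SK (ENSMUSG00002076161) carries the name of the small nuclear RNA that holds the elongation factor P-TEFb inactive. How its reads were shared with any other copy is not stated. It stood at 17.4 and 18.1 FPKM in the H2O libraries and 875 and 1179 FPKM in the injured libraries in KO livers and at 22.6 and 20.5 against 15.3 and 7.30 FPKM in floxed livers (6.71 ± 0.44, limma adjusted p = 0.000613). B3galt1, a galactosyltransferase, went the other way, at 7.90 and 7.55 FPKM in the H2O libraries and 0.890 and 0.767 FPKM in the injured libraries in KO livers and 6.09 and 3.90 against 35.7 and 23.4 FPKM in floxed livers (-4.60 ± 0.34, limma adjusted p = 0.000661).

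**Figure D5:**
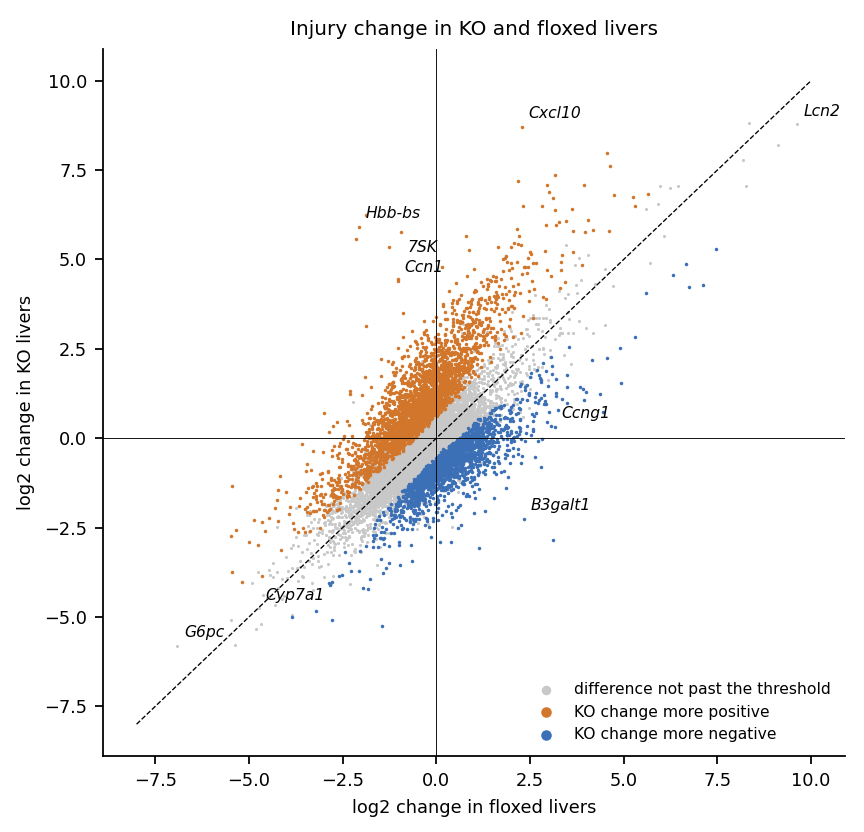
Log2 change after injury in KO livers (vertical axis) against that in floxed livers (horizontal axis) for the 12657 genes, with the line of equal change dashed. Orange and blue points are genes whose change was more positive or more negative in KO livers at an adjusted p under 0.05 (2821 and 1925), grey points the others, with named genes labelled.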

How the data were processed

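Bulk RNA of mouse liver was sequenced in 8 libraries, 2 per group, on an Illumina NovaSeq after TRIzol extraction and the NEBNext Ultra kit, per the labels' protocols. The authors deposited 1 table of FPKM values per gene, not counts. GRCm39 and DESeq2 3.15 are named per the submitters' processing notes, and the sources used here name neither aligner nor counter. Whole fragments could be recovered from the FPKM steps with GENCODE M21 exon lengths for 98.2% to 98.4% of values per library (within 0.01 of a whole number), which gave 18381670 to 24799144 assigned fragments per library.

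The 13708 genes that reached 1 FPKM in 2 or more of the 8 libraries were fitted with limma 3.58.1 in R 4.3.3 on log2(FPKM + 1), with 4 group means over all 8 libraries, a variance trend and Benjamini-Hochberg adjustment at 0.05, and the 12657 genes chosen on the 4 KO libraries are reported. A pseudocount of 1 understates changes of low genes. With 2 libraries per group the fit had 4 residual degrees of freedom. The fit was tested on simulated data. The genes, the gene lists and the tests were chosen with earlier results of these data known. Named genes follow a rule: Glul and Lyz2, the 12 steepest rises and falls, the 8 widest genotype differences in each direction, in each list the 6 smallest p-values, any gene that moved against its list or did not pass, all cell type markers, the 10 highest genes, the 8 widest replicate gaps and a fixed panel. Some genes that the rule names are not reported here. N4bp2os and 1700096K18Rik mark the limit of 1 FPKM. Of the 12657 genes 8791 had a RefSeq promoter by symbol. Alternatives changed the pseudocount, filter, scaling, variance model and libraries, and 2 were added after seeing the data (voom on recovered fragments, and at least 1 FPKM in all 4 KO libraries).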

Additional observations from a re-analysis of the deposited data

Results flagged for a closer look

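For each of the following genes the change after injury differed between KO and floxed livers by limma's test of the difference itself at an adjusted p under 0.05, and the value given is the KO change minus the floxed change (log2, 2 libraries per group). These are the 16 widest differences and the genes of a fixed panel that passed.

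Globin genes were the widest, with Hbb-bt at 8.11, Hbb-bs at 7.98, Hba-a1 at 7.71 and Hba-a2 at 6.60, and in each of them the first injured KO library was far above the second. The entry listed as 7SK was at 6.71, Cxcl10 at 6.42, an unnamed gene (ENSMUSG00000118642) at 5.46 and Ccn1 at 5.42. Cxcl10 rose in both genotypes, to 1073 and 847 FPKM in KO and 21.5 and 21.1 FPKM in floxed livers.

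In the other direction the pseudogene Gtpbp4-ps1 was at -5.95, B3galt1 at -4.60, Gm15502 at -4.23, Gm17662 at -3.80, E030018B13Rik at -3.70, Rnf103 at -3.59, Serpina3c at -3.37 and the microRNA gene Mir199a-1 at -3.33. Serpina3c, a serine protease inhibitor with near-identical relatives, stood at 0.0212 and 0.123 FPKM after H2O and 2.06 and 2.23 FPKM after injury in KO livers, and at 0.0638 and 0 and 25.9 and 35.4 FPKM in floxed livers.

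Among the panel, Il1b (3.25), Lyz2 (3.45), Ccl2 (4.18), S100a8 (3.14), Clec4f (3.10), Hmox1 (2.49), Il6 (2.07) and Tnf (1.92) were more positive in KO livers. Lyz2 fell in floxed livers, from 33.7 and 72.4 to 15.9 and 24.5 FPKM, and rose in KO livers. Glul was more negative in KO livers, at -1.86, and rose in floxed livers, from 107 and 106 to 358 and 237 FPKM. With no filter on low values the difference for Il1b did not pass (adjusted p = 0.0554). The KO and floxed H2O libraries differed in several of these genes before injury, Lyz2 being at 5.27 and 9.92 FPKM in KO and 33.7 and 72.4 FPKM in floxed livers, and the part of that in the difference was not tested.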

How the results depend on the processing

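The count of changed genes moved by over 1.5 times only where fewer genes were tested. With a mean of at least 5 FPKM 3519 of 5625 genes changed (1476 higher, 2043 lower), and with a fit of the 8668 genes at or over 1 FPKM in all 4 KO libraries 5004 changed (1839 higher, 3165 lower). Under the other alternatives it lay between 7009 and 8438, and leaving out single libraries gave 7009 to 7917 changed, 2537 to 2945 higher and 4472 to 4997 lower genes. The count of genes whose change differed between the genotypes was less stable, at 2834 with no filter on low values, 2439 with a mean of at least 5 FPKM and 2896 to 4831 without single libraries. The cause was not tested. Of 235 named genes 206 kept their side of the threshold under every alternative, 8 lost a call under at least 1, 21 gained one and none reversed. For the genotype difference these numbers were 171, 36, 28 and 0. Of the alternatives other than the stricter filters, median centring moved the most list counts by over 1.5 times, 22.

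The replicate numbers of the titles were not used as pairs in the main fit. The deviations of libraries with the same number correlated between -0.10 and 0.27, which cannot decide with 2 libraries per group whether samples were paired. With the replicate block 8137 genes changed (2994 higher, 5143 lower) and the genotypes differed in 4441.

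The precision rests on 2 libraries per group. As 1 fragment in a gene of 1 kb was worth 0.0403 to 0.0544 FPKM, values near 0.1 FPKM rest on few fragments.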

Other observations

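Apolipoproteins did not move as a group, since 4 of 16 rose and 3 fell, shares near or under those over all genes, and without the second H2O library 1 fell. Apom, which carries sphingosine-1-phosphate in HDL, went from 25.2 and 36.8 to 250.1 and 189.7 FPKM (2.80 ± 0.24, limma adjusted p = 6.02e-05), and Apoe, the ligand of lipoprotein receptors, from 4865 and 5846 to 16278 and 13382 FPKM (1.47 ± 0.23, limma adjusted p = 0.00108). The Apoe call was lost with no filter on low values (adjusted p = 0.051). In floxed livers Apoe was at 5138 and 6048 FPKM after H2O and 2236 and 2700.1 FPKM after injury, and the genotypes differed by 2.65 ± 0.33 (limma adjusted p = 0.00196). Of 15 antioxidant genes 7 fell and 3 rose, shares near those over all genes, and 5 rose after median centring. Hmox1, which degrades haem, rose from 4.77 and 6.93 to 185 and 121 FPKM (4.48 ± 0.24, limma adjusted p = 9.55e-06), while Gclc, which limits glutathione synthesis, fell from 126 and 96.7 to 21.1 and 22.1 FPKM (-2.31 ± 0.28) and its partner subunit Gclm went from 22.5 and 22.8 to 8.90 and 7.68 FPKM (-1.35 ± 0.16, limma adjusted p = 0.000269).

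All 7 genes of prostaglandin and leukotriene synthesis changed, 3 upwards and 4 downwards, against 65.1%, 23.9% and 41.2% over all genes. Of the 7, 2, both lower, were at or over 1 FPKM in all 4 KO libraries. Alox5ap, the activator of 5-lipoxygenase, went from 0.363 and 0.268 to 5.91 and 6.02 FPKM (2.40 ± 0.17, limma adjusted p = 2.99e-05), and the inducible cyclooxygenase Ptgs2 from 0.0102 and 0.0119 to 9.34 and 3.18 FPKM (2.70 ± 0.36). The constitutive cyclooxygenase Ptgs1 fell from 4.13 and 3.11 to 1.13 and 0.592 FPKM (-1.32 ± 0.19, limma adjusted p = 0.000641), and Lta4h, which makes leukotriene B4, from 4.69 and 5.21 to 1.13 and 0.800 FPKM (-1.60 ± 0.15). Among genes of the pericentral zone 7 of 13 fell, a share over the 41.2% over all genes. Of the 8 at or over 1 FPKM in all 4 KO libraries 2 fell, a share under it. The Wnt targets Axin2 (2.02 and 1.72 to 0.220 and 0.290 FPKM, -1.19 ± 0.14, limma adjusted p = 0.000228) and Rnf43 (3.95 and 4.42 to 0.221 and 0.738 FPKM, -1.83 ± 0.20) fell. Of 13 periportal genes 4 fell and 2 rose, shares under those over all genes. In the growth hormone axis the receptor Ghr fell from 45.8 and 49.9 to 23.1 and 21.3 FPKM (-1.07 ± 0.15, limma adjusted p = 0.000576) and the feedback inhibitor Socs2 rose from 2.88 and 3.19 to 12.3 and 9.91 FPKM (1.58 ± 0.19, limma adjusted p = 0.000295).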
